A study of Mus musculus with 4 samples.

Results

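The genes described here are 38 interferon-induced genes, among them 5 guanylate-binding protein genes, followed across 4 cultures of mouse CD4+ T cells. These genes, and the lists of other genes used below, were chosen by name with earlier results of these data known. Their shares of called genes, set beside those of all genes, are therefore a description and not a test. A gene's value is that of its brightest probe set among those the platform annotation gives to it alone. Of the 38 genes, 36 had such a probe set (Isg15 and Ifi44 had none) and 34 reached a level above 6.20, the median of all deposited values, on at least 1 array. Mx1 and Oasl2 lay under that level on all 4 arrays and were not compared. Over the whole array, 18194 genes had a probe set of their own and 12440 were compared.

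Each culture began from flow-sorted naive (CD44- CD62L+) CD4+ T cells, taken from the lymph nodes and spleen of C57BL/6J mice that carry the OT2 transgene for a T cell receptor. All 4 were kept for 72 h on plates coated to trigger CD3 and CD28, in a Th17-favouring mix of TGF-β (2 ng/ml), IL-6 (20 ng/ml) and an IL-4-blocking antibody. The STAT3-deficient culture (CD4-Cre stat3 fl/fl OT2) and its STAT3 wild-type control (stat3 fl/fl OT2) also received an IL-2-blocking antibody (10 µg/ml), whereas the STAT5-deficient culture (CD4-Cre stat5 fl/fl OT2) and its STAT5 wild-type control (stat5 fl/fl OT2) received added IL-2 (100 IU/ml). The protocol names no antibody against an interferon. Cre under Cd4 control acts in T cells during their development in the thymus, and the labels do not say whether animals were pooled. The genotype labels of both deficient samples end in the words for wild type, against their titles, so groups follow the titles.

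Each group had 1 array, so no difference has a replicate check and no test, standard error or p-value is given. The 4 arrays limit the precision of every value. Levels are deposited values read as log2 units, a difference of 1 is a 2-fold change, and a gene is called higher or lower at 2-fold or more. A level under 6.20 was taken as background, so counts of called genes are also given with such values raised to 6.20, an alternative added after the data were seen. Array medians were 6.10 for STAT3-deficient, 6.34 for STAT3 wild type, 6.21 for STAT5-deficient and 6.15 for STAT5 wild type. By the probe set used, each deleted gene was lower on its array titled deficient. Stat3 was 7.69-fold lower (9.93 in STAT3-deficient against 12.87 in STAT3 wild-type cells). In the STAT5 pair Stat5a was at least 26.4-fold and Stat5b at least 35.0-fold lower, both under background in STAT5-deficient cells. The second probe set of Stat5b stayed above background there, at 6.87 against 9.84 in STAT5 wild-type cells, 7.84-fold lower. That of Stat5a was at 4.76 against 10.73. Of the other probe sets of Stat3, 1 differed by -2.97 and the remaining 2 by -0.22 and -0.41 in the STAT3 pair, and where the probes lie relative to the deletion is unknown here.

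Interferons act on neighbouring cells through surface receptors and JAK kinases. Type I interferons act on genes that carry an interferon-stimulated response element, and interferon-γ, the Th1 cytokine, on genes that carry a gamma-activated site, a palindrome that STAT3 and STAT5 dimers can also bind. The induced genes encode sensors of foreign nucleic acid, proteins that block viral replication, and large GTPases (the immunity-related GTPases and the guanylate-binding proteins) that attack the vacuoles in which microbes live.

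RefSeq promoter windows, covering 250 bases before and 50 after an annotated start on GRCm38.p6, were given for 28 of the 38 genes. The letters GAAANNGAA, the core of the interferon-stimulated response element, were searched on both strands and occurred in a window of 17 of the 28 genes (60.7%), against 2638 of all 27025 genes with a window (9.76%). The letters TTCNNNGAA of a gamma-activated site, which read the same on both strands, occurred for 10 of 28 (35.7%) against 9.55% of all genes. Matches of both kinds can overlap, as they do upstream of Bst2. A match is a description of the letters and not a measured site, and the genes were listed for their known response to interferon. The median difference without STAT3 was 0.27 for the 15 compared genes with the core, 0.91 for the 10 with a gamma-activated site and 0.83 for the 4 with a window and neither match. Bst2, Gbp7, Igtp and Oas1a carry both and count in the 15 and in the 10, so these medians do not contrast the elements.

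Of the windows below, Ifit1 carries response element cores alone, Irf8 gamma-activated sites alone, Igtp and Gbp7 both, and Gbp3, Gbp2 and Mndal cores alone, and they are shown because these genes stand for the patterns described below, a choice made with their values known. Capitals mark the matched letters in 5′ to 3′ direction of the gene. The windows are chr19:34640639-34640938 (plus strand) for Ifit1, chr8:120736108-120736407 (plus) for Irf8, chr11:58199306-58199605 (plus) for Igtp, chr3:142530086-142530385 (plus) for Gbp7, chr3:142559794-142560093 (plus) for Gbp3, chr3:142620413-142620712 (plus) for Gbp2 and chr1:173880138-173880437 (minus) for Mndal.
Ifit1: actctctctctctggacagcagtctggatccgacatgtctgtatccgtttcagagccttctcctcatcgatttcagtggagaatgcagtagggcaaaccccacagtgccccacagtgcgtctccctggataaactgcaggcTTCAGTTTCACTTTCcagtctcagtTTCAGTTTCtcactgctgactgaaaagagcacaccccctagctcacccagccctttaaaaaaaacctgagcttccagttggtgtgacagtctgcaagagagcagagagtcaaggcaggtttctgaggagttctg
Irf8: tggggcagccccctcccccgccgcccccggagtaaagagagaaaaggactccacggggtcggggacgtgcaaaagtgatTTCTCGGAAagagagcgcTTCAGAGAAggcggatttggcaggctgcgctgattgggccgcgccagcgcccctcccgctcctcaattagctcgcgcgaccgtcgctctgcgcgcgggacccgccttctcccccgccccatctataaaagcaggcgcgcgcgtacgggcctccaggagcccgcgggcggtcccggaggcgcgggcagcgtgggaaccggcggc
Igtp: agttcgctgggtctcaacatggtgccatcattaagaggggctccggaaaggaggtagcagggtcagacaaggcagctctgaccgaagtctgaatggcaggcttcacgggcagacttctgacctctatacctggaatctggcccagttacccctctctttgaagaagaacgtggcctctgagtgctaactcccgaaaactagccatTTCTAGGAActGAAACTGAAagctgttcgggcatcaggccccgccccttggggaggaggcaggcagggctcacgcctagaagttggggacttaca
Gbp7: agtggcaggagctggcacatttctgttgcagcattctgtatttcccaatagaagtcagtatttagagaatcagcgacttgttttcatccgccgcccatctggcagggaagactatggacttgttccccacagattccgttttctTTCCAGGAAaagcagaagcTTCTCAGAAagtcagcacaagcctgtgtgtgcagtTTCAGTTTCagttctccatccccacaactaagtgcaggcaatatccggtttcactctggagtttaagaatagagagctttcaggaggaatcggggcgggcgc
Gbp3: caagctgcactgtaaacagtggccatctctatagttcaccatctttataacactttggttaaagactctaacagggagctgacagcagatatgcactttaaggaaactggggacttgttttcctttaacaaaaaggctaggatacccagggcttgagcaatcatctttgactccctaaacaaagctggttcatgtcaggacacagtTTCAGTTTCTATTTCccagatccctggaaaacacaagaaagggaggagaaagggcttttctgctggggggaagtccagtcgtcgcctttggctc
Gbp2: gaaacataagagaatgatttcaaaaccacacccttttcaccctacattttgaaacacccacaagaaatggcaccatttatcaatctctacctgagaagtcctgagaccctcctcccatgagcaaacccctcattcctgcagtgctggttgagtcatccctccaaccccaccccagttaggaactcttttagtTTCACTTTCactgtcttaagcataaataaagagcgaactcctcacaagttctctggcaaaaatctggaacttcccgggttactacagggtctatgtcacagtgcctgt
Mndal: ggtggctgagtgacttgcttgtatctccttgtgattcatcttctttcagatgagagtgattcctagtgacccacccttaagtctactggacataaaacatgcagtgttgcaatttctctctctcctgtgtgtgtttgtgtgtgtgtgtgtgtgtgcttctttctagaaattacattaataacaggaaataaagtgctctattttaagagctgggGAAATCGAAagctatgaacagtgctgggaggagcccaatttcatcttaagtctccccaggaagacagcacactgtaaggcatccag

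In Ifit1 the first of the 3 cores starts 109 bases before the annotated start and overlaps the second. Irf8 has 2 gamma-activated sites, starting 171 and 153 bases before its first annotated start. In Igtp a gamma-activated site at 45 bases and a core at 34 bases stand beside each other. Gbp7 has gamma-activated sites at 106 and 87 bases and a core at 52, Gbp3 has 2 overlapping cores at 44 and 38, and Gbp2 has 1 core at 58. No match in a window says only that these letters are not there.

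**Figure D1:**
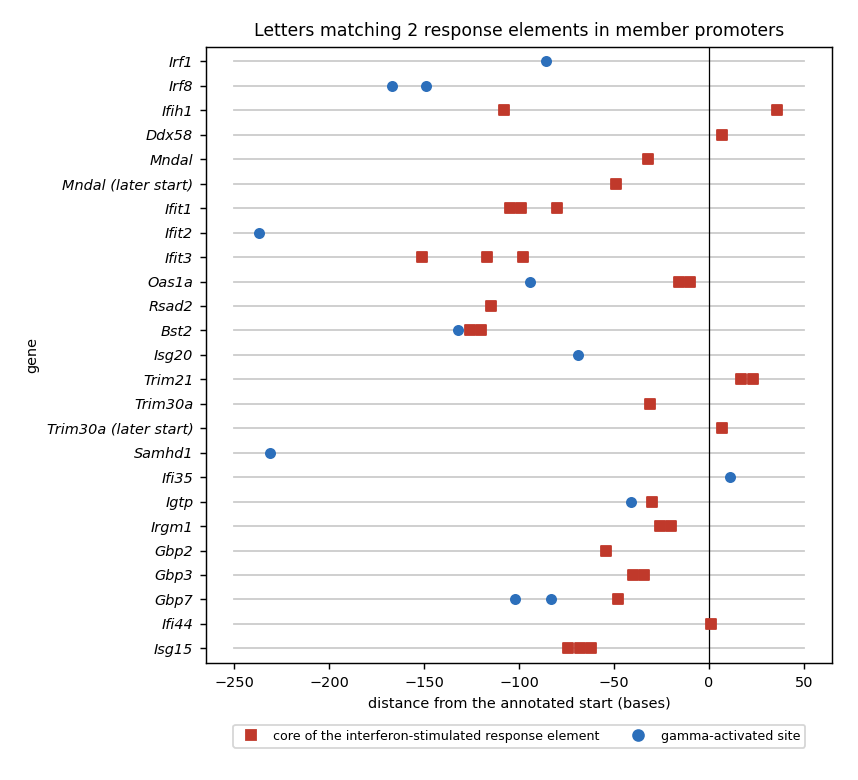
Positions of letters matching the core of the interferon-stimulated response element (squares) and the gamma-activated site (circles) in each member promoter window with a match, plotted as the distance of the match centre from the annotated start in bases. The first bases of the cores lie between 155 before the start and 32 after it.

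In STAT3-deficient cells, 14 of the 34 genes were higher than in STAT3 wild-type cells, against 2.85% of all genes compared, and 2 were lower (Gbp2 and Samhd1), against 7.23%. The median difference of the 34 genes was 0.91, against -0.20 for all genes, and 29 of the 34 lay above the median of all genes. The quartiles of the 34 genes were -0.06 and 1.51, and those of all genes -0.49 and 0.07. Of the 34 genes, 20 were above background on all 4 arrays, 6 on 3, 5 on 2 and 3 on 1 (Ifit1, Oasl1 and Gbp8), and the last entered through the array where they are high. Without those 3 genes, 13 of 31 were higher, 2 lower and the median was 0.90, with no share of all genes given for this recount. With values under background raised to it, 13 of 34 were higher (Ifit1 was not), against 2.36% of all genes, 2 were lower, against 5.45%, and the median was 0.76 against -0.16. With arrays centred on their medians, 19 genes were higher and 1 lower, against 4.13% and 4.74% of all genes. Of all genes called in the STAT3 pair, 71.8% were lower as deposited, 53.4% with arrays centred and 53.8% after intensity-dependent (loess) centring.

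The STAT3-deficient array was also the highest of the 4 for 25 of the 34 genes, a count given without its share of all genes. By a count chosen after the values were seen, it stood 2-fold or more above all 3 other arrays for 10 genes (Ifit1, Irf7, Usp18, Ifih1, Iigp1, Xaf1, Isg20, Mndal, Gbp6 and Gbp7), against 1.5% of all genes, and as far below them for 0, against 3.11%. With values under background raised to it, these were 9 genes, without Ifit1, against 1.25%. The STAT3 wild-type array stood apart upward for 1 gene, Gbp2 (0.635% of all genes), and downward for 0 (0.305%). The STAT5-deficient array stood apart for 0 genes in either direction (0.37% and 0.281%). The STAT5 wild-type array stood apart downward for 3 genes, Mndal, Gbp3 and Gbp6 (0.281%), and upward for 0 (0.426%), but it was under background for all 3, and with such values raised to it the count was 0.

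**Figure D2:**
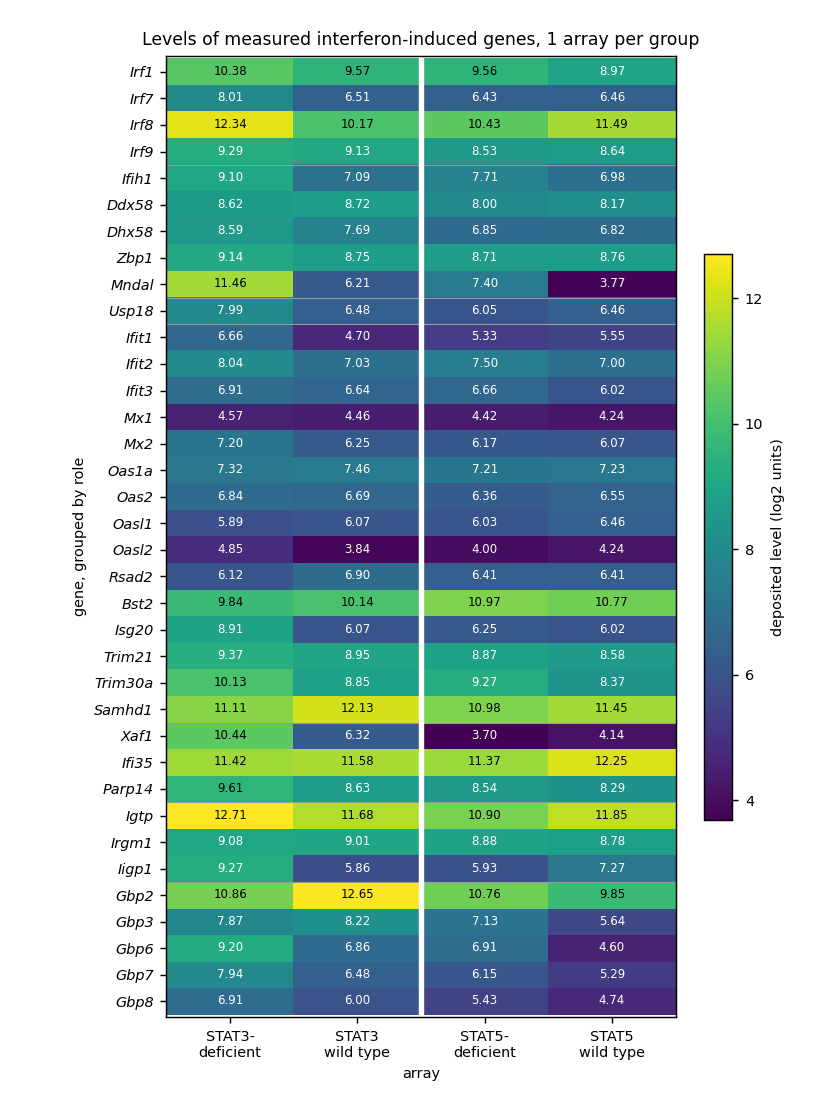
Deposited level (log2 units, colour and printed value) of the 36 measured genes on the 4 arrays, with genes grouped by role and levels of different genes not comparable with each other. The STAT3-deficient column is the brightest in most rows, and the STAT5 wild-type column the darkest for the guanylate-binding proteins and Mndal.

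Among the 4 transcription factors of the list, 2 were higher without STAT3 and 0 lower, against 2.85% and 7.23% of all genes. Irf8, a factor that interferon-γ induces and that is known to restrain Th17 differentiation in mice, stood at 12.34 in STAT3-deficient and 10.17 in STAT3 wild-type cells, and at 10.43 in STAT5-deficient and 11.49 in STAT5 wild-type cells. It was thus 4.52-fold higher without STAT3, 2.09-fold lower without STAT5 and 2.501-fold higher in the STAT5 control than in the STAT3 control. Its other probe set differed by 1.86, -0.94 and 1.09 in the same order, so the difference without STAT5 was at the 2-fold limit. Irf7, the factor that amplifies type I interferon production, was at 8.01 in STAT3-deficient cells and at 6.51, 6.43 and 6.46 in STAT3 wild-type, STAT5-deficient and STAT5 wild-type cells. One array was high and the other 3 lay close together, with a 2.83-fold difference without STAT3. Irf1, an early interferon-γ target, stood at 10.38 in STAT3-deficient against 9.57 in STAT3 wild-type cells (0.81) and at 9.56 in STAT5-deficient against 8.97 in STAT5 wild-type cells (0.58), within 2-fold in both pairs. Irf9, a factor of the type I interferon response, differed by 0.16 and -0.11.

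Of the 5 sensors of nucleic acid, 2 were higher without STAT3, against 2.85% of all genes. Ifih1, which encodes the long double-stranded RNA sensor MDA5, was at 9.10 in STAT3-deficient and 7.09 in STAT3 wild-type cells (4.05-fold), and at 7.71 in STAT5-deficient and 6.98 in STAT5 wild-type cells (0.73). Ddx58, which encodes the related RNA sensor RIG-I, did not follow it, with differences of -0.10 without STAT3 and -0.17 without STAT5. Dhx58, which encodes LGP2, a regulator of both sensors, was at 8.59 in STAT3-deficient against 7.69 in STAT3 wild-type cells (0.90) and at 6.85 against 6.82 in the STAT5 pair. Its other 2 probe sets lay under background on all 4 arrays. In the RefSeq annotation Dhx58 lies on chromosome 11 with 6 genes between it and Stat5b, and the 4 of those neighbours that were compared (Kat2a, Rab5c, Hcrt and Ghdc) differed by -0.81 to 0.37 without STAT3 and by -0.34 to 0.55 without STAT5. Zbp1, a sensor of Z-form nucleic acid, differed by 0.38 and -0.05.

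Mndal, a member of the interferon-inducible p200 family of DNA-binding proteins, was called higher in both deletions. It stood at 11.46 in STAT3-deficient and 6.21 in STAT3 wild-type cells (5.25, 38.1-fold), and at 7.40 in STAT5-deficient and 3.77 in STAT5 wild-type cells (3.63). With the STAT5 wild-type value under background the second difference is a bound of at least 2.30-fold. The probe set used can match several transcripts. The other one, which carries no such mark, was at 9.99, 5.06, 5.22 and 3.27 on the STAT3-deficient, STAT3 wild-type, STAT5-deficient and STAT5 wild-type arrays. It was above background in STAT3-deficient cells alone, so the difference without STAT5 rests on 1 probe set. Of the same family, Ifi203 differed by -0.08 without STAT3 and -0.34 without STAT5, and Ifi204 lay under background on all 4 arrays.

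Among the antiviral effectors, 4 of the 13 compared were higher without STAT3 (3 with values under background raised to it), against 2.85% of all genes, and 1 was lower, a share near the 7.23% of all genes. Isg20, an exonuclease that degrades viral RNA, was at 8.91 in STAT3-deficient cells and at 6.07, 6.25 and 6.02 in STAT3 wild-type, STAT5-deficient and STAT5 wild-type cells. Its control lay under background, so it was at least 6.57-fold higher without STAT3. Ifit1, which binds viral RNA that lacks the host cap, was above background in STAT3-deficient cells alone, at 6.66, and at 4.70, 5.33 and 5.55 in STAT3 wild-type, STAT5-deficient and STAT5 wild-type cells, which gives at least 1.38-fold without STAT3. Trim30a, a ubiquitin ligase family member that restrains inflammatory signalling, stood at 10.13 in STAT3-deficient against 8.85 in STAT3 wild-type cells (1.28) and at 9.27 in STAT5-deficient against 8.37 in STAT5 wild-type cells (0.90, within 2-fold). Its second probe set gave 1.38 and 0.88. Ifit2, a relative of Ifit1, was at 8.04 in STAT3-deficient and 7.03 in STAT3 wild-type cells, 1.002 apart and so at the 2-fold limit, and at 7.50 in STAT5-deficient and 7.0 in STAT5 wild-type cells.

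Samhd1, which depletes nucleotides that viruses need, was at 11.11 in STAT3-deficient against 12.13 in STAT3 wild-type cells (-1.02). Its other 4 probe sets differed by -0.53 to 0.20, and none passed 2-fold. Several classical type I interferon targets lay within 2-fold without STAT3: Ifit3 (0.27), Oas1a (-0.14) and Oas2 (0.15), the last 2 oligoadenylate synthetases that trigger RNA decay. Oasl1 was under background on both arrays of the STAT3 pair. Rsad2, which encodes viperin, was under background in STAT3-deficient cells (6.12) and at 6.90 in STAT3 wild-type cells, and Bst2, which encodes the virion tether tetherin, differed by -0.30. Mx2, an antiviral GTPase, was 0.96 above its control. Without STAT5, 0 of the 13 effectors were called, against 1.86% of all genes higher and 1.74% lower. Their range was -0.47 to 0.90.

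Usp18, the protease that removes the ubiquitin-like protein ISG15 and dampens type I interferon signalling, followed Irf7. It was at 7.99 in STAT3-deficient cells and at 6.48, 6.05 and 6.46 in STAT3 wild-type, STAT5-deficient and STAT5 wild-type cells, 2.85-fold higher without STAT3. Xaf1, an antagonist of the apoptosis inhibitor XIAP, had 17.4-fold more signal without STAT3 by the probe set used, at 10.44 in STAT3-deficient against 6.32 in STAT3 wild-type cells, and lay under background in STAT5-deficient (3.70) and STAT5 wild-type cells (4.14). Its second probe set was at 6.14 and 4.93 in the STAT3 pair and at 6.97 and 5.70 in the STAT5 pair, so that it differed by 1.21 without STAT3 and 1.27 without STAT5, and disagreed with the first on the STAT5 pair and on the controls. Parp14, an ADP-ribosyltransferase, was at 9.61 in STAT3-deficient against 8.63 in STAT3 wild-type cells (0.97), just inside 2-fold. Ifi35 differed by -0.15 without STAT3 and -0.87 without STAT5.

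The immunity-related GTPases were uneven. Iigp1, which coats the vacuoles of intracellular parasites, stood at 9.27 in STAT3-deficient and 5.86 in STAT3 wild-type cells, at least 8.44-fold higher. In the STAT5 pair it was at 5.93 in STAT5-deficient and 7.27 in STAT5 wild-type cells, at least 2.10-fold lower. Its second probe set differed by 3.90 without STAT3, with the STAT3 wild-type value under background. Without STAT5 it differed by -1.20, but its values in STAT5-deficient (4.71) and STAT5 wild-type cells (5.91) were both under background. Its direction in the STAT5 pair therefore adds no check. Igtp, a regulatory GTPase of the family, was at 12.71 in STAT3-deficient against 11.68 in STAT3 wild-type cells (1.03) and at 10.90 in STAT5-deficient against 11.85 in STAT5 wild-type cells (-0.95). Irgm1, the third GTPase of the family on the list, differed by 0.07 and 0.10, and Irgm2 and Ifi47, further members from another list, by 0.25 and 0.31 without STAT3 and by -0.05 and -0.23 without STAT5.

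**Figure D3:**
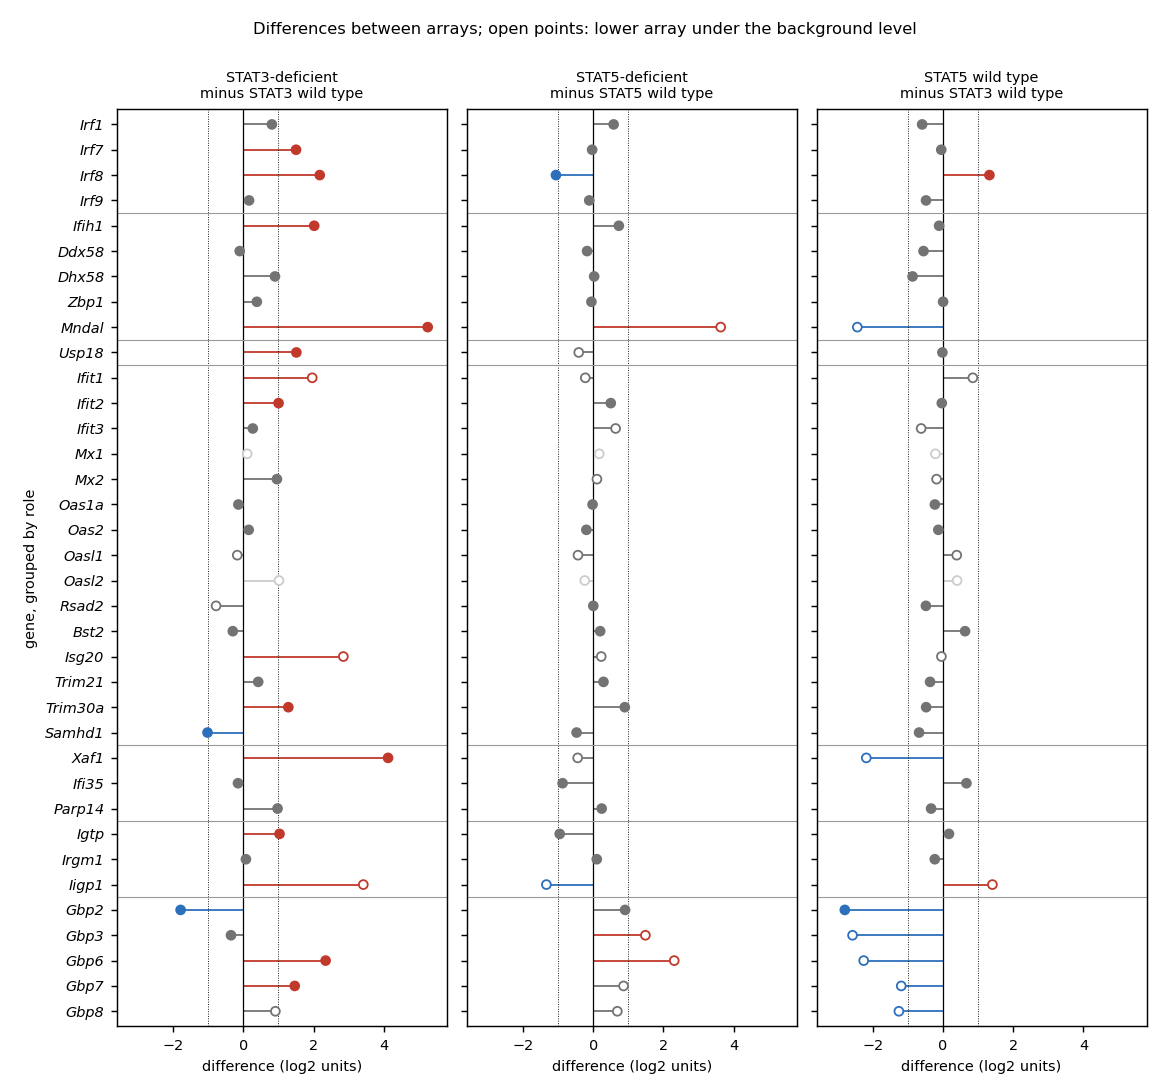
Difference between 2 arrays (log2 units) for each of the 36 measured genes in the 3 comparisons, red at 2-fold or more higher, blue at 2-fold or more lower, grey within 2-fold, pale for the 2 genes not compared. In the right panel the measured differences of the 5 guanylate-binding proteins are all below -1, 4 of them with the STAT5 wild-type value under background, and in the left panel the red points reach 5.25 for Mndal.

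Without STAT5, in cells given IL-2, the list as a whole lay where all genes did. Of the 34 genes, 3 were higher (Mndal, Gbp3 and Gbp6), against 1.86% of all genes, and 2 lower (Irf8 and Iigp1), against 1.74%. The median difference was 0.06, as for all genes (0.06), and 17 of the 34 lay above the median of all genes. The spread was wider than that of all genes, with quartiles of -0.22 and 0.62 against -0.14 and 0.25. The lower array was under background for 4 of the 5 called genes, so their sizes are uncertain. With values under background raised to it, 1 gene was higher (Mndal), against 1.24% of all genes, and 2 were lower, against 1.29%.

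The guanylate-binding proteins, which assemble on membranes of invading microbes and help to break them, had measured differences above 0 without STAT5. Of the 5, 2 were past 2-fold, against 1.86% of all genes, and the median was 0.91. With values under background raised to it, 0 of 5 passed 2-fold, against 1.24%, and the median was 0.71. Gbp6 was at 6.91 in STAT5-deficient and 4.60 in STAT5 wild-type cells, at least 1.64-fold higher and 4.95-fold by the measured values. Gbp3 was at 7.13 in STAT5-deficient and 5.64 in STAT5 wild-type cells, at least 1.91-fold higher. Gbp2, whose values were all far above background, was at 10.76 in STAT5-deficient and 9.85 in STAT5 wild-type cells (0.91). Gbp7 (6.15 against 5.29) and Gbp8 (5.43 against 4.74) were under background on both arrays of the pair. The second probe set of Gbp7 was at 6.46 in STAT5-deficient and 4.35 in STAT5 wild-type cells (2.11).

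Without STAT3 these 5 genes lay on both sides of their controls. Gbp6 was at 9.20 in STAT3-deficient and 6.86 in STAT3 wild-type cells (2.34), and Gbp7 at 7.94 and 6.48 (1.46). Gbp2 was 3.45-fold lower, at 10.86 in STAT3-deficient against 12.65 in STAT3 wild-type cells, and its second probe set differed by -1.72. Gbp3 (7.87 against 8.22, -0.35) and Gbp8 (6.91 against 6.00, 0.91) lay within 2-fold. Gbp2, Gbp3 and Gbp7 are on chromosome 3 and Gbp6 and Gbp8 on chromosome 5, so genes of 1 cluster were found on both sides of 0.

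The 2 deletions share no array, so no value enters both differences. The pairs differ in IL-2 and mouse line as well as in the deleted gene, and these cannot be told apart in a contrast between the pairs. Across the 34 genes Pearson's r was 0.25 and Spearman's rho 0.03, given as a description, and r was -0.12 without Mndal and -0.28 without Mndal and Gbp6. The genes share their arrays, and over all 12440 genes r was 0.08. By measured values, Mndal and Gbp6 were higher in both deletions, Irf8 and Iigp1 were higher without STAT3 and lower without STAT5, and 10 genes were higher without STAT3 and within 2-fold without STAT5. Gbp3 was higher without STAT5 and within 2-fold without STAT3, and 17 genes were within 2-fold in both. No share of all genes is given for these joint patterns. Of all genes, 1.86% were higher and 1.74% lower without STAT5, so a gene within 2-fold there is the common case.

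**Figure D4:**
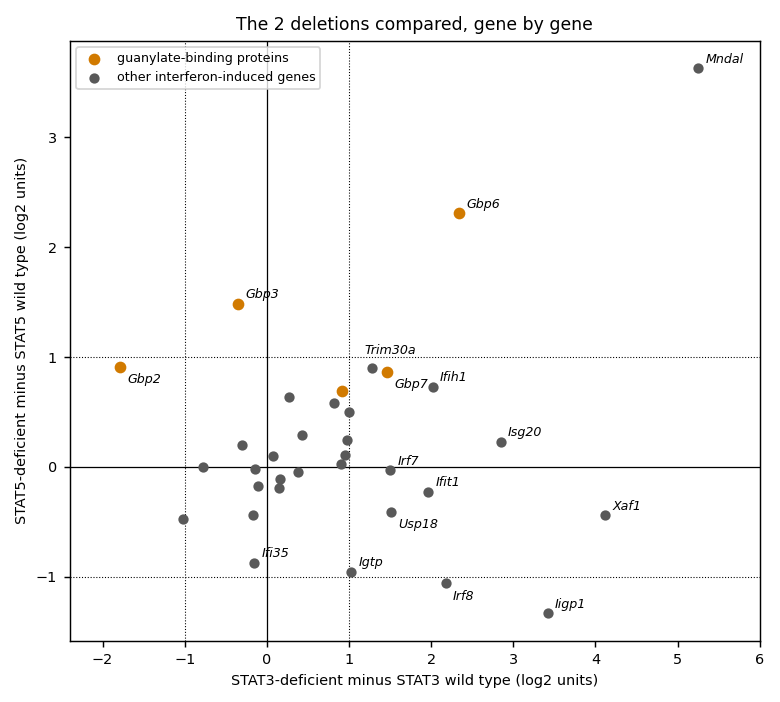
Difference without STAT3 (x axis, log2 units) against difference without STAT5 (y axis, log2 units) for the 34 genes compared, with dotted lines at 2-fold. Mndal and Gbp6 sit in the upper right corner, Irf8 and Iigp1 at the lower right, and the 5 guanylate-binding proteins all lie above the horizontal zero line by measured values, which were under background in STAT5 wild-type cells for 4 of them.

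The STAT5 wild-type culture, given IL-2, was also set against the STAT3 wild-type culture, in which IL-2 was blocked. The mouse line differs between them as well, so the line and IL-2 cannot be told apart. Of the 34 genes, 2 were higher (Irf8 and Iigp1), against 2.35% of all genes, and 7 lower (Xaf1, Mndal and the 5 guanylate-binding proteins), against 2.95%. The median difference was -0.29, against 0.06 for all genes, and 27 of 34 lay below the median of all genes. With values under background raised to it, 2 were higher, against 1.98% of all genes, and 2 lower (Gbp2 and Gbp3), against 1.69%, with a median of -0.13. This comparison shares an array with each of the others, so its differences are linked to theirs by construction.

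All 5 guanylate-binding proteins had measured differences past 2-fold toward lower values in the STAT5 control, against 2.95% of all genes. With values under background raised to it this held for Gbp2 and Gbp3 alone, against 1.69%, and the median was -0.66 in place of -2.26. Gbp2 was at 9.85 in STAT5 wild-type and 12.65 in STAT3 wild-type cells, 6.95-fold lower, with both values above background and a second probe set at -2.78. Gbp3 was at 5.64 against 8.22 in STAT3 wild-type cells, at least 4.06-fold lower, and Gbp6 at 4.60 against 6.86, at least 1.58-fold lower. The STAT5-deficient value lay between those of the controls for Gbp2 (10.76) and Gbp3 (7.13) and close to that of the STAT3 control for Gbp6 (6.91). Gbp7 was at 5.29 against 6.48, and Gbp8 at 4.74 in STAT5 wild-type cells while its STAT3 wild-type value of 6.00 was itself under background. Gbp7 was just inside 2-fold with arrays centred on their medians, and Gbp7 (-0.85) and Gbp8 (-0.84) were inside it after loess. Iigp1 was at 7.27 in STAT5 wild-type and 5.86 in STAT3 wild-type cells, and Irf8 at 11.49 and 10.17, on the other side of 0. Mndal was at 3.77 in STAT5 wild-type and 6.21 in STAT3 wild-type cells, at least 1.01-fold lower, and Xaf1 at 4.14 and 6.32, at least 1.09-fold lower, or -0.71 with its probe sets averaged. Of all genes called between controls, 55.7% were lower as deposited, 42.4% with a stricter filter, 27.8% with arrays centred and 50.3% after loess.

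Where a gene had several probe sets above background on at least 1 of the 4 arrays, they mostly differed in one direction. Among the called genes with more than 1, all probe sets differed in one direction for 8 of 9 genes without STAT3 (the exception being Samhd1), 4 of 4 without STAT5 and 6 of 7 between controls (the exception being Xaf1). Some of these probe sets were under background on both arrays of the pair compared, so their direction adds no check. This held for the second probe sets of Xaf1 without STAT3, of Mndal and Iigp1 without STAT5, and of these same genes between controls. Over 5557 genes with several probe sets, their SD had a median of 0.23, 0.17 and 0.21 log2 units in the 3 comparisons, which measures disagreement between probes and not between cultures.

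**Figure D5:**
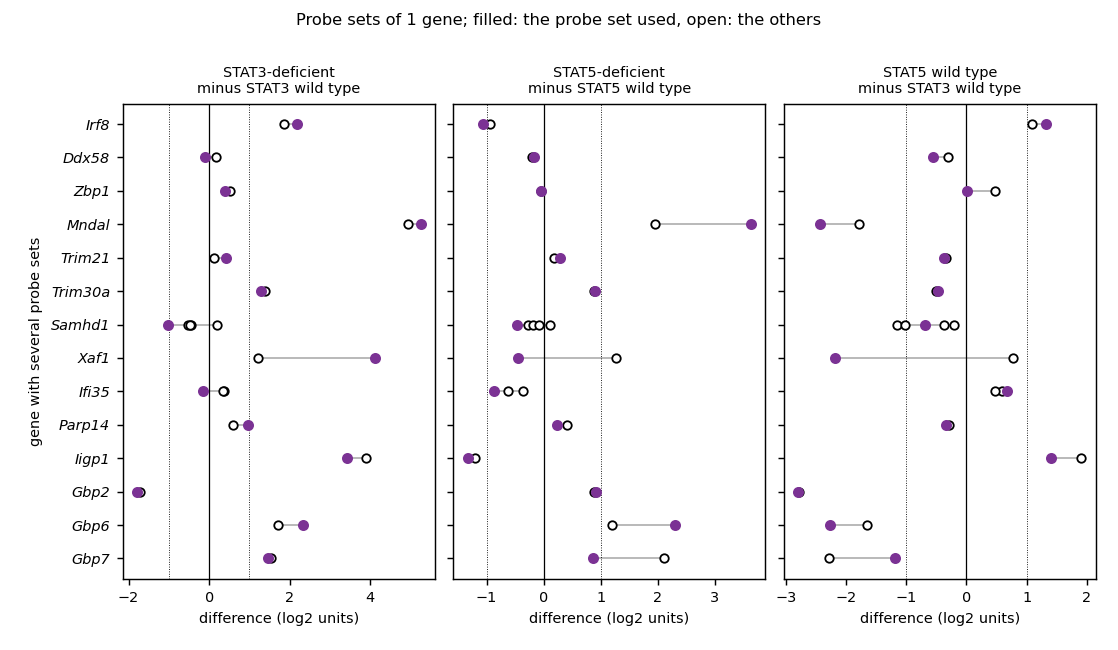
Differences (log2 units) by each probe set of the 14 genes with more than 1 probe set above background on at least 1 array. The probe set used in the text is filled and the others are open. Xaf1 has probe sets on both sides of 0 in the middle and right panels, and Mndal, Gbp6 and Gbp7 have the widest gaps of one sign in the middle panel.

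Genes that carry the interferon signal were mostly within 2-fold of their controls. Of 12 measured receptors, kinases, STAT2 and regulators, 2 were lower without STAT3, against 7.23% of all genes, and 0 higher: Ifngr2, the signalling chain of the interferon-γ receptor (8.62 in STAT3-deficient against 9.83 in STAT3 wild-type cells), and Ptpn2, a phosphatase that turns off JAK signalling (10.63 against 11.65). In the STAT5 pair 0 of 12 were called, against 1.86% of all genes higher and 1.74% lower, with Ifngr2 farthest out at -0.81. Of the interferon genes measured, Ifng was at 8.56 in STAT3-deficient and 3.84 in STAT3 wild-type cells, at least 5.13-fold higher, and under background in STAT5-deficient (4.56) and STAT5 wild-type cells (4.84). Ifnb1 stood at 5.96 and 6.11 in the STAT3 pair, under background. Among 11 compared genes of the sensing pathway, 2 were higher without STAT3, against 2.85% of all genes, and 0 lower, against 7.23%. They were Irf5 (1.21) and Tlr7, an RNA receptor, which was at least 1.74-fold higher with its control under background. Without STAT5, 0 of the 11 were called.

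Other interferon-induced genes, were taken from a list without the 38. Of 25 compared, 4 were higher without STAT3, against 2.85% of all genes, or 3 with values under background raised to it: Ifi27l2a (13.23 in STAT3-deficient against 10.92 in STAT3 wild-type cells), Rtp4 (at least 1.80-fold, and so not called with the floor), Oas3, a large oligoadenylate synthetase (1.87), and Ifitm2, which blocks viral entry (1.86). Ifitm1 was lower (6.24 in STAT3-deficient against 9.35 in STAT3 wild-type cells), and the chemokine gene Cxcl10 had both values under background. The list's median was 0.36. Without STAT5, 3 of 25 were higher, against 1.86% of all genes, and 0 lower: Ifitm3 (8.90 in STAT5-deficient against 7.19 in STAT5 wild-type cells), Slfn2, which T cell quiescence requires in mice (1.32), and Slfn1 (1.24). Slfn1 was at 6.75 in STAT5 wild-type and 9.80 in STAT3 wild-type cells, and Ifitm3 and Ifitm1 were also lower in the STAT5 control, at -1.36 and -1.82.

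All 9 compared genes of antigen processing lay above 0 without STAT3, with a median of 0.65 against -0.20 for all genes. Of these, 2 were past 2-fold, against 2.85% of all genes: Psmb9, an immunoproteasome subunit (12.09 in STAT3-deficient against 10.65 in STAT3 wild-type cells), and the peptide transporter gene Tap2 (1.03). Without STAT5, 8 of 9 lay above 0 with a median of 0.16, where the median of all genes was itself above 0, at 0.06. Of the 9, 1 was higher, against 1.86% of all genes: Psmb10, another immunoproteasome subunit (10.45 in STAT5-deficient against 9.15 in STAT5 wild-type cells). Of 11 compared Th1 genes, 7 were higher without STAT3, against 2.85% of all genes, and 0 lower, also with values under background raised to it. Among them, Il18r1 differed by 3.55 with both values above background, and Tbx21 and Fasl were at least 6.69-fold and 6.07-fold higher. Ifng and these Th1 genes were higher on the same array as the interferon-induced genes, and their part in the result was not tested. Without STAT5, 3 Th1 genes were higher, against 1.86% of all genes, Tbx21 (at least 3.19-fold), Il18rap (1.41) and Cxcr3 (1.19), while Ifng was under background on both arrays.

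The CD4+ T cell markers Cd3e, Cd3g, Cd4, Cd28 and Cd2 were above background on every array, and the log2 of their summed level was 14.30 in STAT3-deficient, 14.46 in STAT3 wild-type, 14.13 in STAT5-deficient and 14.23 in STAT5 wild-type cells. Of 4 measured B cell markers 0, 1, 2 and 1 were above background on the same arrays, with summed levels of 7.81 to 8.15, and of 5 myeloid markers 2, 1, 1 and 1, with 8.25 to 8.46. Of 4 NK cell markers 2 were above background on every array (Klrd1 and Eomes) with summed levels of 8.67, 9.63, 8.57 and 9.63, while Ncr1 and Klra8 lay under it. Klrd1 differed by -1.27 without STAT3 and -1.56 without STAT5, and its part in the results was not tested. The plasmacytoid dendritic cell list shares Bst2 and Irf7 with the genes described here and had 3, 3, 4 and 3 of 5 markers above background, with summed levels of 10.45, 10.57, 11.20 and 11.04. Its defining marker Siglech was at 5.47 in STAT3-deficient, 6.04 in STAT3 wild-type, 6.41 in STAT5-deficient and 5.81 in STAT5 wild-type cells. Of the 2 CD8 markers 1, 2, 2 and 2 were above background, with summed levels of 8.14 to 8.59, and Sox13, the 1 measured gamma delta T cell marker, lay between 5.95 and 6.43. In a bulk sample, fewer cells of a type and less RNA per cell cannot be told apart.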

How the data were processed

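RNA from each of the 4 cultures was measured on 1 Affymetrix mouse expression array. The authors used Affymetrix Power Tools, per the submitters' processing notes. Its version, the summarisation and the background correction were not given in the sources used here. Deposited values were read as log2 because they run from 2.48 to 15.09, and another logarithmic base would change every fold printed. Of 45101 probe sets, 34958 name 1 gene, 932 several and 9211 none, and the last kinds were left out. The brightest probe set of a gene by mean over the 4 arrays was used. Genes with a maximum over 6.20 (percentile 50) were compared by subtraction, and 2-fold was the call. A bound ("at least") replaces a value under 6.20 by 6.20. All 38 symbols matched RefSeq of GRCm38.p6, used for names, neighbours and promoters. Members, roles and pathway lists were chosen with earlier results of these data known. By rule, values on all arrays are given for genes past 2-fold in any comparison, others by difference, and up to 4 genes of each pathway list. Alternatives were averaged probe sets, leaving out _s_at, _x_at and _a_at probe sets, dropping the filter, a stricter one (percentile 75, a level of 8.29), centring of array medians, loess (fraction 0.4), 1.5-fold and 3-fold thresholds, and, added after the data were seen, values under 6.20 raised to it, in Python 3.11.15 with statsmodels 0.14.6.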

Additional observations from a re-analysis of the deposited data

Results flagged for a closer look

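Probe sets that the annotation gives to several genes were not used, and 2 of them held a signal above the STAT3 control. A probe set of Mndal shared with Ifi211, Ifi205 and Ifi204 was at 9.09 in STAT3-deficient and 4.66 in STAT3 wild-type cells, a difference of 4.44. The same probe set was at 5.98 in STAT5-deficient and 3.42 in STAT5 wild-type cells, both under background. A probe set of Trim30a shared with Trim30d was at 8.0 in STAT3-deficient and 6.74 in STAT3 wild-type cells (1.25), and at 7.15 in STAT5-deficient and 6.70 in STAT5 wild-type cells. Neither value can be given to 1 gene.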

How the results depend on the processing

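The number of genes higher without STAT3 was 14 of 34 as deposited, against 2.85% of all genes, and 8 at 3-fold. With the stricter filter it was 9 of 21, against 2.89% of all genes. The number lower was 1 in place of 2 with probe sets averaged, with either centring and at 3-fold. No share of all genes is given at 1.5-fold or 3-fold. The median without STAT3 was 1.15 with arrays centred on their medians, while its distance from the median of all genes (1.11) is fixed under that shift of 0.24 and was 0.92 to 1.12 under the others. Of all called genes, 71.8% were lower without STAT3 as deposited, 53.4% with arrays centred and 53.8% after loess, and between controls 55.7%, 27.8% and 50.3%, or 42.4% with the stricter filter. Without STAT5, 1 gene was lower with probe sets averaged, as Irf8 stood just inside 2-fold. At 1.5-fold 9 were higher and 4 lower, and at 3-fold 0 were lower. Between controls, 4 of 21 were lower with the stricter filter, against 1.96% of all genes. There, 5 were higher and 11 lower at 1.5-fold, and 0 were higher at 3-fold. The stricter filter and thresholds count fewer or more genes by construction. With values under background raised to it, an alternative chosen after seeing the data, 1 gene was higher without STAT5 and 2 were lower between controls, since Gbp3 and Gbp6, and between controls Xaf1, Mndal, Gbp6, Gbp7 and Gbp8, became bounds or 0. Among the 34 genes, none called as deposited took the opposite sign where an alternative gave a value. Irf7, Isg20, Trim30a and Gbp3 gave none without _s_at, _x_at and _a_at probe sets, the stricter filter left out further genes, and pathway genes were recounted with the floor alone. Centring added Mx2, Dhx58, Gbp8 and Parp14 to the genes higher without STAT3 in both forms and brought Igtp past 2-fold without STAT5 (-1.02 and -1.03). No paired analysis was possible because each group has 1 array, and for the same reason no array could be left out. A lower value under background limits the sizes of 3 of 16 calls without STAT3, 4 of 5 without STAT5 and 7 of 9 between controls. The STAT3 wild-type value of Mndal lay just above background and is not among these 3.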

Other observations

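Isg15, which encodes the ubiquitin-like protein that Usp18 removes, was read only by a probe set shared with Gm9706. That probe set was at 7.43 in STAT3-deficient and 7.12 in STAT3 wild-type cells, and at 6.96 in STAT5-deficient and 7.33 in STAT5 wild-type cells, within 2-fold in both pairs. A probe set shared by Gbp8 and Gbp4 lay under background on all 4 arrays, between 5.78 and 6.03.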
